A study of Homo sapiens with 8 samples.

Results

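The early response of human embryonic stem cells (hESCs) to blockade of MFG-E8 was measured by RNA sequencing after 12 h of treatment. Cells of the line BG01, grown in mTeSR medium, received 5 µg/mL of anti-M8nAb, an antibody that neutralizes MFG-E8, or 5 µg/mL of normal mouse IgG as its isotype control. The comparison rests on 4 of the 8 libraries of the series, chosen by their labels as 2 with anti-M8nAb and 2 with IgG at 12 h. The other 4 libraries hold the same treatments at 24 h and are used where the 2 times are set side by side. All groups are 1 line and all received an antibody, and no library of cells without antibody is used here.

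MFG-E8, encoded by MFGE8, is a secreted glycoprotein with one part that binds phosphatidylserine on membranes and another that binds integrins through an RGD sequence. It is best known as a bridge between dying cells and the phagocytes that engulf them, and it also coats extracellular vesicles. In hESCs, which grow as epithelial colonies on matrix, integrin engagement feeds into AKT, focal adhesion and actin signals that support growth and survival.

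Counts over genes came to 21010400 to 21792716 per library. Levels are given as CPM (counts scaled to a common library total, with TMM, the trimmed mean of M values). A gene was called at an adjusted p under 0.05 from the quasi-likelihood test of edgeR (two-sided, over 20165 genes), and a second, stricter call also asked for a fold of at least 2. At 12 h, 15.8% of the genes tested were higher and 16.4% lower with anti-M8nAb at the adjusted p. With the fold as well these shares were 3.4% and 2.97%. Among the 8395 genes with a mean of at least 20 CPM, 23.0% were higher and 20.5% lower. Counts of a gene group below are to be read against these shares. The median log2 fold change over all genes tested was 0.00, and over genes past the adjusted p its median size was 0.48. The libraries are labelled biological replicates, but the labels name no separate cultures. The p-values therefore cover only how far these libraries spread, which may be technical. In bulk RNA, fewer cells of a kind and less RNA per cell cannot be told apart. Whether reads were kept apart by strand was not tested. Where 10% or more of a gene's exons lie opposite another gene in the annotation, that share is given as overlapped.

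The 12 markers of hESCs examined, among them POU5F1, NANOG and SOX2, all lay at 104 CPM or more in each of the 4 libraries of 12 h. Markers of other cells were mostly lower. The 14 markers of trophoblast and amnion summed to 30.1 and 31.0 CPM with IgG and to 29.6 and 30.4 CPM with anti-M8nAb, and 7 of them, among them the hormone subunit CGA, had at most 5 counts in any library. Within this list GATA3 had 1 and 4 counts with IgG and 23 and 22 with anti-M8nAb, and GATA2 had 4 and 5 and then 18 and 18. Such genes could pass the filter on low counts through the treated libraries alone, and 8 of the 14 did not pass it. IGFBP3 rose by 0.44 on the log2 scale and KRT7 fell by 0.39. The 14 markers of blood and endothelium summed to 86.9 and 89.4 CPM with IgG and to 74.2 and 78.0 CPM with anti-M8nAb, almost all from KDR and TEK, of which TEK fell by 0.58. The 13 fibroblast markers summed to 540 and 539 CPM with IgG and to 619 and 581 CPM with anti-M8nAb, most of it from THY1, which hESCs also express and which rose by 0.25 (12% of exons overlapped). The 3 others above 20 CPM were COL1A1 with a log2 fold change of -0.05 (adjusted p = 0.681), COL1A2, which fell by 0.60, and PDGFRB, which rose by 0.38, while FAP and LUM had at most 6 counts in any library. The part of such cells in the results below was not tested. MFGE8 itself lay at 811 and 823 CPM with IgG and at 944 and 903 CPM with anti-M8nAb (log2 fold change 0.18, SE 0.04, adjusted p = 0.00152). The antibody binds the protein, so the transcript does not check the labels.

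**Figure D1:**
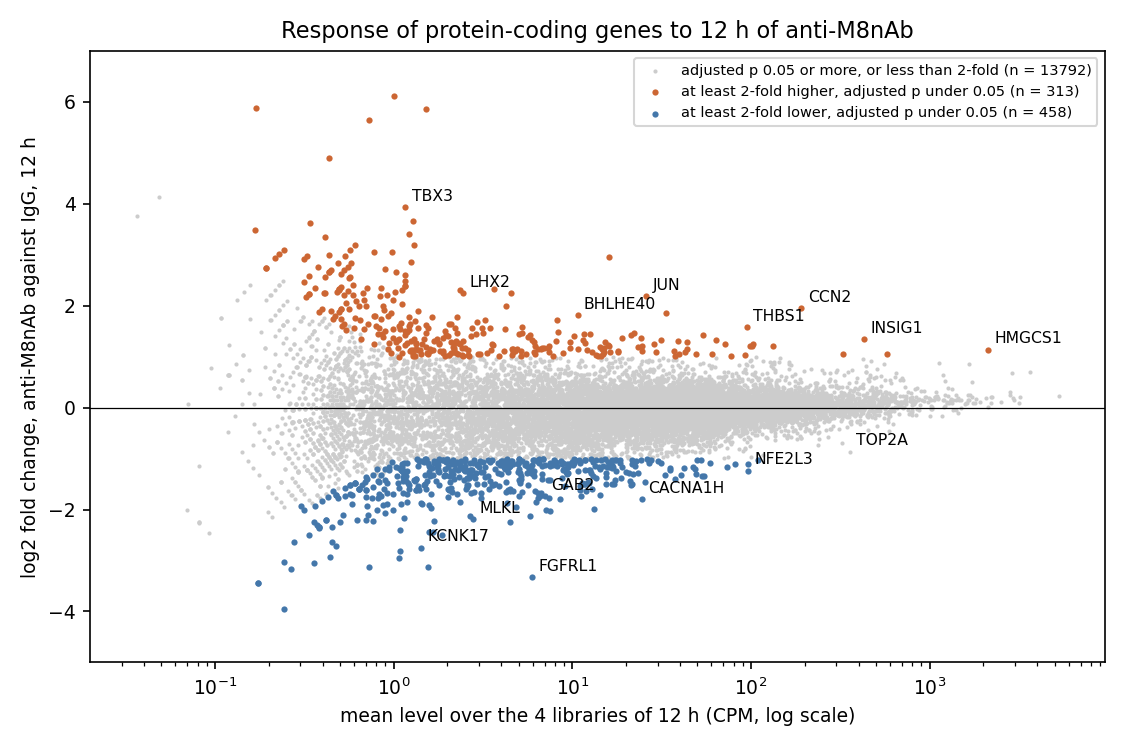
Log2 fold change between anti-M8nAb and IgG at 12 h (y axis) against the mean level over the 4 libraries in CPM (x axis, log scale), with 1 point per protein-coding gene. The 313 genes at least 2-fold higher are orange, the 458 at least 2-fold lower are blue, and the others are grey. Of the 771 coloured genes 615 lie below 10 CPM, whereas HMGCS1, INSIG1 and CCN2 stand out at high levels.

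Genes of cholesterol synthesis rose together after 12 h of anti-M8nAb. Cells make cholesterol from acetyl-CoA through the mevalonate pathway. Its genes are switched on by the transcription factor SREBP2 when the sterol content of the endoplasmic reticulum falls, and INSIG1 holds SREBP2 back when sterol is plentiful. HMGCS1 (chromosome 5, 43287470 to 43313512, GRCh38), which makes the HMG-CoA that feeds the pathway, lay at 1341 and 1327 CPM with IgG and at 2970 and 2889 CPM with anti-M8nAb. INSIG1 (chromosome 7, 155297776 to 155310235) lay at 250 and 238 CPM with IgG and at 618 and 615 CPM with anti-M8nAb. In both genes the libraries of the 2 treatments were far apart and those of 1 treatment nearly equal. The log2 fold changes were 1.14 for HMGCS1 (SE 0.04, adjusted p = 1.03e-25) and 1.34 for INSIG1 (SE 0.05, adjusted p = 1.03e-25), with 37.7% of the HMGCS1 exons overlapped.

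The steps that follow moved the same way. MVD, which forms isopentenyl diphosphate, rose by 1.05 on the log2 scale, from 378 and 377 to 767 and 793 CPM. The late enzymes MSMO1 and SC5D, which trim and desaturate the sterol ring, rose by 0.96 and 0.91. All 25 genes of the list passed the filter on low counts. Of these, 23 were higher at the adjusted p, against 23.0% of well-expressed genes, 0 were lower, and 4 were at least 2-fold higher. The median log2 fold change of the list was 0.64 at 12 h and 0.66 at 24 h. In 23 of the 25 the treated libraries lay above the control libraries with no overlap, which held for 40.4% of well-expressed genes. The exceptions, named after their values were seen, were PMVK with a log2 fold change of -0.08 and TM7SF2 with 0.06. The same 23 and 0 were counted without anti-M8nAb replicate 2.

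Fatty acid synthesis, the other lipid pathway under SREBP factors, rose in most of its genes. ACLY, which cleaves citrate to cytosolic acetyl-CoA for both pathways, lay at 1191 and 1188 CPM with IgG and at 2134 and 2166 CPM with anti-M8nAb (log2 fold change 0.85, SE 0.04, adjusted p = 2.2e-21). The stearoyl-CoA desaturase SCD went from 2730 and 2786 to 4539 and 4432 CPM, and the fatty acid synthase FASN from 2229 and 2211 to 3573 and 3522 CPM. ACSS2, which makes acetyl-CoA from acetate, rose by 0.73, and the elongase ELOVL5 by 0.59. Of 16 genes tested, 12 were higher and 2 lower, with a median log2 fold change of 0.45. The 2 that fell were HACD2 and ELOVL1, with log2 fold changes of -0.29 and -0.35, which act in the elongation of very long chains. SREBF1, which encodes the SREBP factor of fatty acid synthesis, was at 74.3 and 72.8 CPM with IgG and at 71.6 and 72.1 CPM with anti-M8nAb (log2 fold change -0.04, adjusted p = 0.754). The desaturase FADS1 did not pass the test either, with -0.06.

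**Figure D2:**
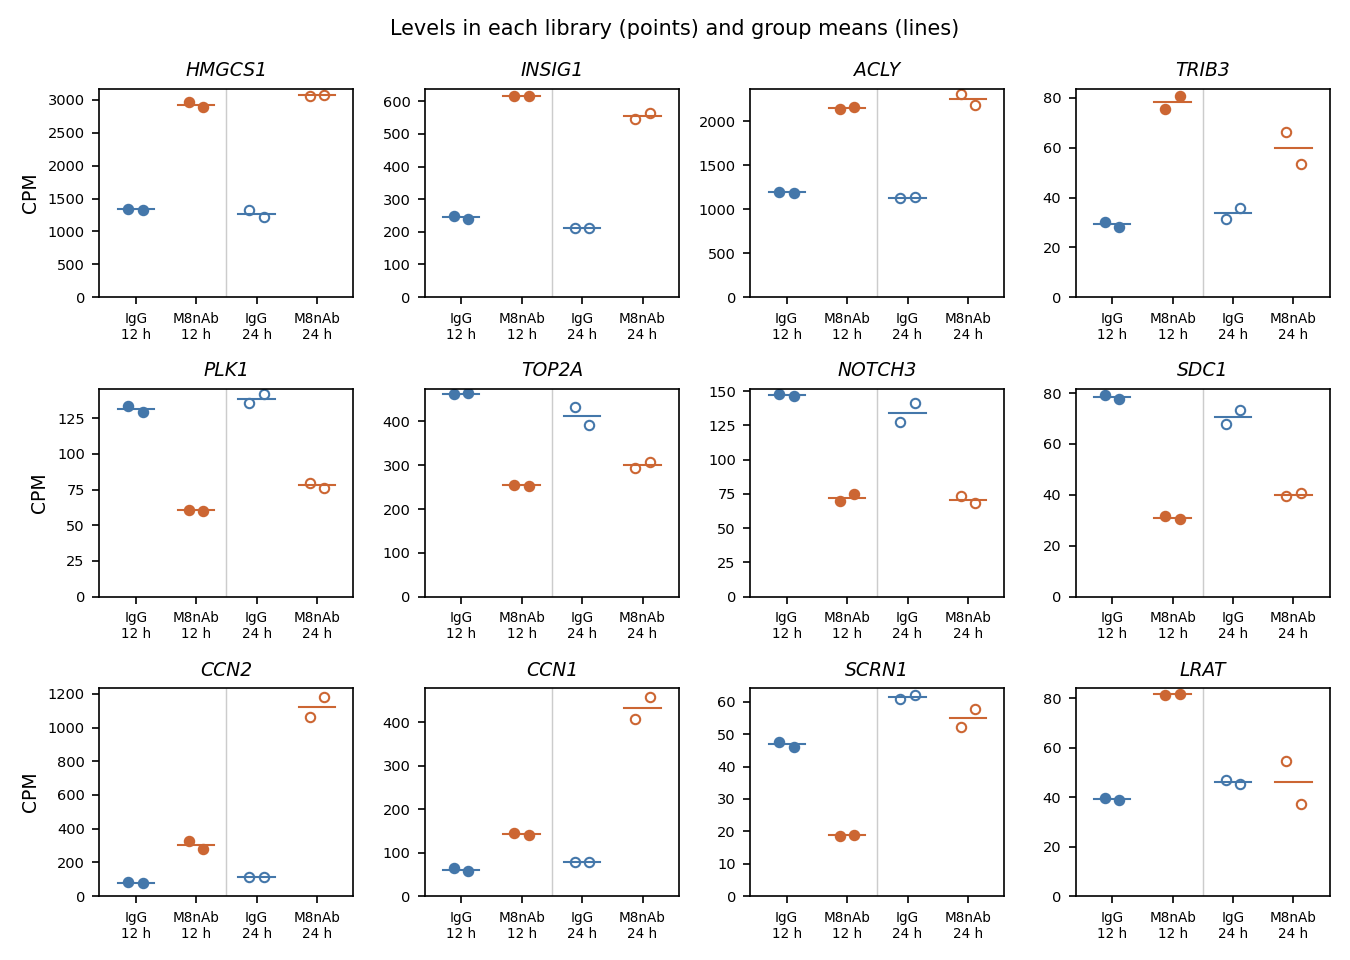
Level in CPM (y axis, from 0) of 12 genes in each of the 8 libraries, with filled points for 12 h, open points for 24 h, blue for IgG, orange for anti-M8nAb and lines for group means. At 12 h the 2 libraries of a treatment lie close together in every gene shown, and SCRN1 and LRAT part the treatments at 12 h and hardly at 24 h.

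The promoters of INSIG1 and HMGCS1, the sterol genes with the smallest p, are shown because the list moved as one. Each runs from 250 bases before to 50 after the RefSeq start of the gene, 5′ to 3′ (GRCh38.p14). Capitals mark CCAAT or its reverse ATTGG, the motif of the factor NF-Y. The RefSeq start can differ from the start in the gene coordinates given in the text, which come from GENCODE. INSIG1 is at chr7:155297628-155297927 on the plus strand and HMGCS1 at chr5:43313363-43313662 on the minus strand.
INSIG1: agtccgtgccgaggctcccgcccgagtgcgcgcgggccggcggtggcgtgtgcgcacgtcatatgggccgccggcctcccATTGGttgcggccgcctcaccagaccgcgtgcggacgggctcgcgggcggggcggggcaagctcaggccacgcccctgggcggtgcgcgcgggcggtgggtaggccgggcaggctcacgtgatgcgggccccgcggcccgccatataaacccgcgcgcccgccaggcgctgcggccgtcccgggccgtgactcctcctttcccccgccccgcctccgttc
HMGCS1: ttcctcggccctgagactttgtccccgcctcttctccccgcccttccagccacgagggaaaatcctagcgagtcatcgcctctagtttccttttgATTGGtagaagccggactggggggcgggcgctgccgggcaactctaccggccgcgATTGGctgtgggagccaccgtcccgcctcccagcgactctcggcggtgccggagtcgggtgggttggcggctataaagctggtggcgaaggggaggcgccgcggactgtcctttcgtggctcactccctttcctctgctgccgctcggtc
A promoter was found for 18 of the 25 sterol genes. CCAAT on either strand was in 15 of these 18 windows, against 36.0% of the 12878 windows of genes tested. The sterol-regulatory motif, searched on both strands as TCACNCCAC, was in 1 of the 18, SREBF2 (named after its match was seen), against 1.17% of the windows of genes tested. In fatty acid synthesis CCAAT was in 7 of 15 windows and the sterol-regulatory motif in 0. A match describes the letters of the window and is no measure of binding, and the sterol-regulatory motif was searched in this 1 spelling.

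Genes of mitosis fell together. The mitotic programme is transcribed in late cell cycle, and its members build the spindle, separate the chromosomes and complete the division. PLK1 (chromosome 16, 23677656 to 23690367), a kinase that drives entry into mitosis and spindle assembly, lay at 133 and 130 CPM with IgG and at 61.0 and 60.3 CPM with anti-M8nAb. Its log2 fold change was -1.12 (SE 0.06, adjusted p = 1.72e-18), with 12.8% of its exons overlapped. AURKA, a kinase of the spindle poles, went from 92.9 and 93.9 to 54.2 and 53.1 CPM. UBE2C, which hands ubiquitin to the anaphase-promoting complex, went from 114 and 120 to 68.3 and 64.9 CPM. The spindle factors TPX2 and DLGAP5 fell by 0.62 and 0.63 on the log2 scale. The treated libraries lay below the controls with no overlap in each gene named here, and in 44 of the 50 genes of the list, against 35.8% of well-expressed genes.

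Of 50 mitosis genes, all tested, 39 were lower and 2 higher, against 20.5% and 23.0% of well-expressed genes, and the median log2 fold change was -0.39. The 2 that rose, named after their values were seen, were PLK4 with 0.23 and CDC25C with 0.32. Fewer genes of DNA replication moved, and more of those fell than rose. Of 56 tested, 18 were lower and 5 higher, with a median of -0.08. These are 32.1% and 8.93%, against the same 20.5% and 23.0%. UHRF1, which couples maintenance of DNA methylation to replication, fell most clearly, from 60.2 and 55.9 to 23.2 and 23.4 CPM (log2 fold change -1.32, adjusted p = 2.14e-15). The clamp loader subunits RFC2 and RFC3 fell by 0.56 and 0.59, whereas ORC6, of the origin recognition complex, and the polymerase subunit POLD2 rose by 0.41 and 0.33. Among the G1 cyclins and kinases 9 of 21 were lower and 4 higher. CCNE1, the cyclin of the entry into S phase, went from 56.3 and 53.6 to 30.3 and 29.5 CPM. CCND1 fell by 0.34 (adjusted p = 8.72e-05, 10% of exons overlapped), while CCND2 and CDK6 rose by 0.38 and 0.61. Without anti-M8nAb replicate 2 the counts of lower genes were 38 in mitosis, 12 in DNA replication and 5 among the G1 genes.

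The promoters of PLK1 and TOP2A are shown with capitals on TTTGAA or its reverse TTCAAA, the cell cycle homology region (CHR) that marks many genes of late cell cycle. PLK1 is at chr16:23678639-23678938 on the plus strand and TOP2A at chr17:40417847-40418146 on the minus strand. The PLK1 window lies inside the gene coordinates given above, downstream of their start.
PLK1: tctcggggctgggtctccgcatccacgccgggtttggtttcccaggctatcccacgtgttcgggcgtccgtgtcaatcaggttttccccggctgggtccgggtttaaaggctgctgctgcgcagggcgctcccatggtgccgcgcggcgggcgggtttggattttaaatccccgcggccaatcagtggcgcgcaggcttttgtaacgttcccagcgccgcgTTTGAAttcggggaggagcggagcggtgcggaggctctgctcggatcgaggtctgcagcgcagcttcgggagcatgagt
TOP2A: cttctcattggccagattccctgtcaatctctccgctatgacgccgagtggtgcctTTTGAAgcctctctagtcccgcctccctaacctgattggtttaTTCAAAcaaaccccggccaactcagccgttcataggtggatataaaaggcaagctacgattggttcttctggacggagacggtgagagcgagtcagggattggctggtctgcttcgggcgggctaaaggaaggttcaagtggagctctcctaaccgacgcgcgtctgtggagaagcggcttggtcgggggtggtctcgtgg
The CHR was in 29 of the 43 mitosis genes with a promoter in the table, against 10.1% of windows of genes tested, and CCAAT was in 33 of the 43. No motif searched contains another, so a window can hold both. The adjusted p was passed, in either direction, by 24 of the 29 genes with a CHR and by 12 of the 14 without. The 29 genes with a CHR had a median log2 fold change of -0.45, and the 14 without had -0.34. This difference was not tested.

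**Figure D3:**
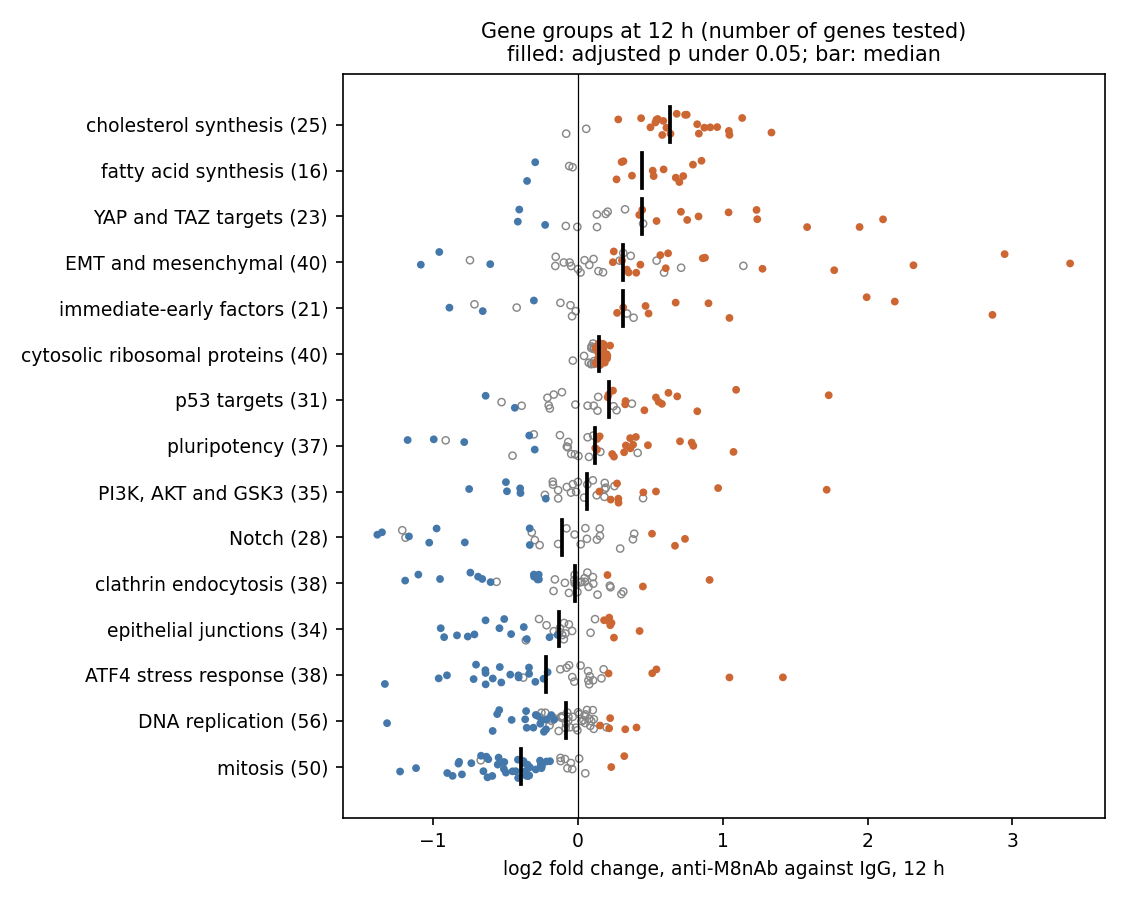
Log2 fold change between anti-M8nAb and IgG at 12 h (x axis) for each tested gene of 15 gene groups, with filled points at an adjusted p under 0.05 (orange higher, blue lower), open points otherwise and black bars at the medians. Cholesterol synthesis lies to the right with a median of 0.64 and mitosis to the left with -0.39, while the ribosomal proteins form a narrow band at 0.15.

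Targets of YAP and TAZ, coactivators that carry mechanical and adhesion signals to the TEAD factors, were higher in 12 and lower in 3 of 23 genes tested, with a median log2 fold change of 0.45. CCN1, a matricellular ligand of integrins, lay at 64.4 and 57.0 CPM with IgG and at 145 and 142 CPM with anti-M8nAb (log2 fold change 1.24, adjusted p = 5.74e-20). AMOTL2, which restrains YAP, went from 61.3 and 60.3 to 123 and 127 CPM. TEAD1, one of the factors themselves, rose by 0.76. CCN2 (chromosome 6, 131948176 to 131951372) lay at 81.5 and 76.3 CPM with IgG and at 326 and 282 CPM with anti-M8nAb, and 11.9% of its exons overlap LINC01013. Its promoter, at chr6:131951323-131951622 on the minus strand, is shown with capitals on GGAATG, the TEAD motif.
CCN2: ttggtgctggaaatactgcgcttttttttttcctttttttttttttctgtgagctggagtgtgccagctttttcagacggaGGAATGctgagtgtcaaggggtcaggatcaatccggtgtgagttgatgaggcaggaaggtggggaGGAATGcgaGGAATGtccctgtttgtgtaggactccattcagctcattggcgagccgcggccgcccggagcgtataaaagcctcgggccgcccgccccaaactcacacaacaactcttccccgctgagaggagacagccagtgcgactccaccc
It held 3 matches within 169 bases before the start. GGAATG on either strand was in 6 of 17 windows of the list, against 11% of those of genes tested. In all 7 motifs were searched on both strands. The AP-1 motif TGANTCA was in 1 of 16 windows of the immediate-early factors, the cyclic AMP element TGACGTCA in 2 and the E-box CACGTG in 2, against 4.68%, 3.11% and 9.55%.

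More genes of the mesenchyme were higher than lower, while genes of epithelial junctions went both ways, more of them lower. TAGLN, which binds actin, lay at 117 and 116 CPM with IgG and at 208 and 215 CPM with anti-M8nAb (log2 fold change 0.86, adjusted p = 5.15e-17, 34% of exons overlapped). The tropomyosin TPM1 rose by 0.61 (23% overlapped). VIM, the mesenchymal intermediate filament, rose by 0.43, from 150 and 150 to 207 and 198 CPM, with 25% of its exons overlapped. The membrane protease MMP14 went the other way, from 83.2 and 78.0 to 39.2 and 36.9 CPM. Of 40 genes of epithelial-to-mesenchymal transition tested, 17 were higher and 3 lower, with a median of 0.31. These are 42.5% and 7.5%, against 23.0% and 20.5% of well-expressed genes.

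Among 34 genes of epithelial junctions 13 were lower and 7 higher, with a median of -0.13. These are 38.2% and 20.6%, against 20.5% and 23.0% of well-expressed genes, so the share of higher genes was near that of any gene. Without anti-M8nAb replicate 2 the median was -0.165. DSP, which anchors desmosomes, went from 131 and 118 to 76.9 and 70.2 CPM. The tight junction claudin CLDN7 went from 70.7 and 78.6 to 40.5 and 43.3 CPM. ESRP1 and ESRP2, splicing factors of epithelial cells, fell by 0.54 and 0.64. CDH1, which encodes E-cadherin, lay at 229 and 222 CPM with IgG and at 257 and 233 CPM with anti-M8nAb and did not pass the test (log2 fold change 0.12, adjusted p = 0.0905). Extracellular matrix genes went both ways, 9 higher and 7 lower of 38, with COL2A1 at 0.90 and LTBP1 at -0.51.

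The receptor genes of MFG-E8 did not pass the test. MFG-E8 binds the integrin of ITGAV and ITGB5, whose transcripts had log2 fold changes of 0.06 each (adjusted p = 0.587 and 0.389). Among 36 genes of integrins and focal adhesion 8 were lower and 6 higher. ITGA5, the fibronectin receptor subunit, went from 26.0 and 28.9 to 16.2 and 15.5 CPM, and ITGA2, a collagen receptor subunit, from 9.77 and 8.60 to 4.76 and 4.58 CPM. VCL, which links adhesions to actin, rose by 0.58, with 11% of its exons overlapped. GAS6, a bridging ligand like MFG-E8, and its receptor TYRO3 fell by 0.63 and 0.57. ATP11A, a flippase that keeps phosphatidylserine inside the cell, fell by 0.46. Of 26 genes of phosphatidylserine bridging and uptake tested, 6 were lower and 3 higher, MFGE8 among them, a share of lower genes near that of well-expressed genes.

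Clathrin-mediated endocytosis, by which vesicles can enter a cell, had 12 lower and 3 higher of 38 genes, with a median of -0.02. HIP1R, which joins clathrin coats to actin, went from 21.9 and 24.2 to 10.99 and 9.21 CPM (log2 fold change -1.19, adjusted p = 6.65e-11). FCHO1, an initiator of coated pits, fell by 0.95 and the adaptor ARRB2 by 0.74. DNM1, the dynamin that severs vesicles, went from 65.5 and 52.9 to 38.9 and 34.6 CPM, while DNM2 had a log2 fold change of 0.11 (adjusted p = 0.128). Along the AKT pathway 9 of 35 genes were higher and 6 lower. AKT1 went from 111 and 102 to 78.6 and 73.2 CPM, and the insulin receptor INSR fell by 0.75. PIK3IP1, an inhibitor of PI3K, rose from 4.10 and 3.54 to 13.7 and 11.4 CPM, and its regulatory subunit gene PIK3R3 rose by 0.97. GSK3B, the kinase that AKT restrains, rose by 0.28 and CTNNB1, which encodes beta-catenin, by 0.16. In each gene of this paragraph given as risen or fallen the libraries of the 2 treatments did not overlap. Among well-expressed genes 40.4% lay above and 35.8% below with no overlap. Most of the genes here were named for a small p, so the lack of overlap adds little.

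Genes of Notch signalling, by which neighbouring cells instruct each other, were lower in 8 and higher in 3 of 28. The receptor NOTCH3 (chromosome 19, 15159038 to 15200995) lay at 148 and 146 CPM with IgG and at 69.8 and 74.7 CPM with anti-M8nAb (log2 fold change -1.02, SE 0.07, adjusted p = 6.58e-17). The ligand JAG2, the modulator DTX1 and the target NRARP fell by 1.35, 1.38 and 0.97. The DNA-binding partner RBPJ rose by 0.67 and HES6, an inhibitor of HES1, by 0.74. The Nodal and TGF-beta list had 15 higher and 6 lower of 33. The ligand NODAL rose by 0.79 (34% of exons overlapped) and GDF3, of the same family, by 0.80, while the Nodal antagonist LEFTY2 went from 11.5 and 11.6 to 5.69 and 5.88 CPM. Wnt genes went both ways, 11 higher and 9 lower of 39, with the receptor FZD5 at 0.93, the modulator DACT1 at 1.30 and the co-receptor LRP5 at -0.69. In the BMP list 8 were higher and 3 lower of 26, with ID4 at 1.15 and ID3 at -0.32. FGF ligands and receptors were higher in 6 and lower in 1 of 20, with FGF2 at 0.38 (12% overlapped) and FGFR2 at 0.44. The 1 that fell was FGFRL1, a receptor that lacks the kinase part, from 11.4 and 10.2 to 1.37 and 0.77 CPM.

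Markers of pluripotency were in part slightly higher at 12 h. POU5F1 lay at 1358 and 1401 CPM with IgG and at 1559 and 1506 CPM with anti-M8nAb (log2 fold change 0.15, adjusted p = 0.00335). NANOG rose by 0.25 (adjusted p = 0.00121), and SOX2 did not pass, with -0.07 (adjusted p = 0.395). SALL4, which sustains POU5F1, rose by 0.48 and the RNA-binding protein L1TD1 by 0.36. OTX2 (chromosome 14, 56799905 to 56816693), a factor of the primed state and of anterior neural fate, went from 53.3 and 59.6 to 90.5 and 93.6 CPM. Of 37 genes 17 were higher and 5 lower, with a median of 0.12. These are 45.9% and 13.5%, against 23.0% and 20.5% of well-expressed genes. The genes picked out so far in this paragraph include none of the 5 lower ones. The log2 fold changes of the 37 ran from -1.17 to 1.075, with 1 gene at least 2-fold higher and 1 at least 2-fold lower. Factors of lineages were near the limit of detection. Of 46 listed, 24 passed the filter, and a gene could pass through the treated libraries alone, so no count is given for them. LHX2 lay at 0.60 and 1.10 CPM with IgG and at 3.68 and 4.44 CPM with anti-M8nAb, and MEIS2 at 0.18 and 0.23 and at 1.67 and 1.83 CPM. The more abundant SOX11 and SOX3, both neural, had log2 fold changes of -0.46 and 0.52. The summed level of the 24 was 202 to 209 CPM in all 4 libraries.

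Stress programmes did not move as one. ATF4 switches on amino acid synthesis and transport when translation is restrained, and 19 of its 38 targets were lower and 5 higher, with a median of -0.22. The amino acid transporter SLC1A5 went from 317 and 330 to 216 and 215 CPM (24% of exons overlapped), the tRNA ligase AARS1 fell by 0.47 and PSAT1, of serine synthesis, by 0.41. TRIB3, an inhibitor of AKT and of ATF4, rose from 30.3 and 28.3 to 75.5 and 81.0 CPM (log2 fold change 1.42, SE 0.09, adjusted p = 4.02e-17). ATF3 rose by 1.05 and the lipoprotein receptor VLDLR by 0.51. In the list of metallothioneins and zinc genes 8 of 15 tested were higher and 2 lower, with log2 fold changes from -1.33 to 1.43. Its summed level was 753 and 765 CPM with IgG and 747 and 721 CPM with anti-M8nAb. Metallothioneins, which bind zinc and copper, rose in 6 genes, from 0.68 in MT1F to 1.43 in MT1H. Near-identical copies may share their reads. The zinc exporter SLC30A1 rose by 0.65 while the importers SLC39A6 and SLC39A14 fell by 0.47 and 0.48. Another importer, SLC39A8, rose by 0.34 and SLC39A10 had -0.06 (adjusted p = 0.486). Targets of p53 were higher in 14 and lower in 2 of 31, with a median of 0.21, among them MDM2 at 0.46 (11% overlapped) and RRM2B at 0.63. Immediate-early factors were higher in 10 and lower in 3 of 21. The apoptosis list had 7 higher and 5 lower of 37. APAF1, the scaffold of the apoptosome, went from 38.9 and 35.1 to 19.3 and 17.2 CPM (10% of exons overlapped), and MCL1, which protects mitochondria, rose by 0.41. Of 40 cytosolic ribosomal protein genes 27 were higher and 0 lower, with small changes and a median of 0.15. Their processed pseudogenes can share their reads.

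Among 14563 protein-coding genes tested, 313 (2.15%) were at least 2-fold higher and 458 (3.14%) at least 2-fold lower. The largest changes among those with a mean of at least 1 CPM were in genes of low level. Such genes could pass the filter on low counts through the treatment in which they are high alone. Their folds then rest on few counts in the other treatment. The GTPase regulator FGD2 lay at 0.32 and 0.046 CPM with IgG and at 2.45 and 2.31 CPM with anti-M8nAb, and the serotonin receptor HTR5A at 0.32 and 0.18 and at 2.06 and 2.65 CPM (20% of exons overlapped). SERPINA1 had 2 and 0 counts with IgG and 88 and 35 with anti-M8nAb, so its treated replicates were more than 2-fold apart. The cell cycle inhibitor CDKN2B, UBA7, an activating enzyme of a ubiquitin-like modifier, and the neural factor POU4F2 had log2 fold changes of 2.66, 2.61 and 2.49. On the other side the potassium channel genes KCNJ4 and KCNK17 had -2.94 and -2.75 (13% of KCNJ4 exons overlapped), the pseudokinase of necroptosis MLKL -2.19, TDRD7, of germ granules, -2.49, and the adhesion receptor ADGRE2 -2.44 (16% overlapped). At higher levels the smallest p among genes that fell belonged to NFE2L3, a relative of NRF2, which went from 133 and 137 to 59.5 and 54.9 CPM (28.1% of exons overlapped by HNRNPA2B1). SDC1, a heparan sulfate proteoglycan of the cell surface, went from 79.3 and 77.7 to 31.5 and 30.4 CPM, ARID3A from 74.7 and 77.8 to 29.6 and 30.5 CPM, and the glycolytic kinase PFKP from 112 and 110 to 52.7 and 49.6 CPM. Long non-coding RNAs were at least 2-fold higher in 199 (4.63%) and lower in 123 (2.86%) of 4295. LINC00640 lay at 0.18 and 0.23 CPM with IgG and at 2.06 and 2.46 CPM with anti-M8nAb. SLCO4A1-AS1 lay at 3.83 and 4.42 CPM with IgG and at 0.64 and 0.92 CPM with anti-M8nAb, with 23% of its exons overlapped.

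Some genes called at 12 h had a smaller change at 24 h. The contrasts at the 2 times share no library, and the difference between them had its own test in the same fit. Of the 1284 genes past both thresholds at 12 h, 714 were not past both at 24 h, and for 249 (19.4%, against 12.3% of all genes tested) the difference passed an adjusted p of 0.05. In 207 of the 249 the change was weaker or turned at 24 h and in 42 it was stronger. Genes chosen for a large change at 1 time tend to have a smaller one at the other, so this split says nothing of the response as a whole. Of the 1935 genes past both thresholds at 24 h the difference passed for 468, of which 466 were weaker or turned at 12 h and 2 stronger. The 207 held 103 protein-coding genes, of which 40 were up and 63 down at 12 h, and 78 processed pseudogenes. SCRN1 (chromosome 7, 29920104 to 29990289), named for a role in secretion, lay at 47.6 and 46.0 CPM with IgG and at 18.6 and 18.9 CPM with anti-M8nAb at 12 h. At 24 h it lay at 60.8 and 62.1 CPM with IgG and at 52.1 and 57.7 CPM with anti-M8nAb. The log2 fold changes were -1.32 and -0.16 (adjusted p of the difference = 7.96e-10).

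LRAT, which esterifies retinol, was at 39.6 and 38.7 CPM with IgG and at 81.2 and 81.9 CPM with anti-M8nAb at 12 h. At 24 h its 2 anti-M8nAb libraries, at 54.5 and 37.4 CPM, lay on both sides of the IgG libraries at 47.1 and 45.5 CPM. TEF, a factor tied to the circadian clock, had log2 fold changes of 1.10 and -0.05. The signalling adaptor GAB2 had -1.74 and -0.21, FGD5, a regulator of CDC42, -1.27 and -0.18, and JPH4, which ties the endoplasmic reticulum to the plasma membrane, -1.31 and -0.44. OTX2 turned, with 0.71 and -0.53 (adjusted p of the difference = 2.88e-12). NANOG turned too, with 0.25 and -0.25, and ITGA5 had -0.80 and 0.25. In DNA replication 23 of 56 genes were more negative at 24 h and 0 more positive, and in pluripotency 12 of 37 were more negative and 1 more positive. In ATF4 targets 13 of 38 were more positive at 24 h and 2 more negative. Cholesterol synthesis differed in 7 of 25 genes, 2 more positive and 5 more negative.

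**Figure D4:**
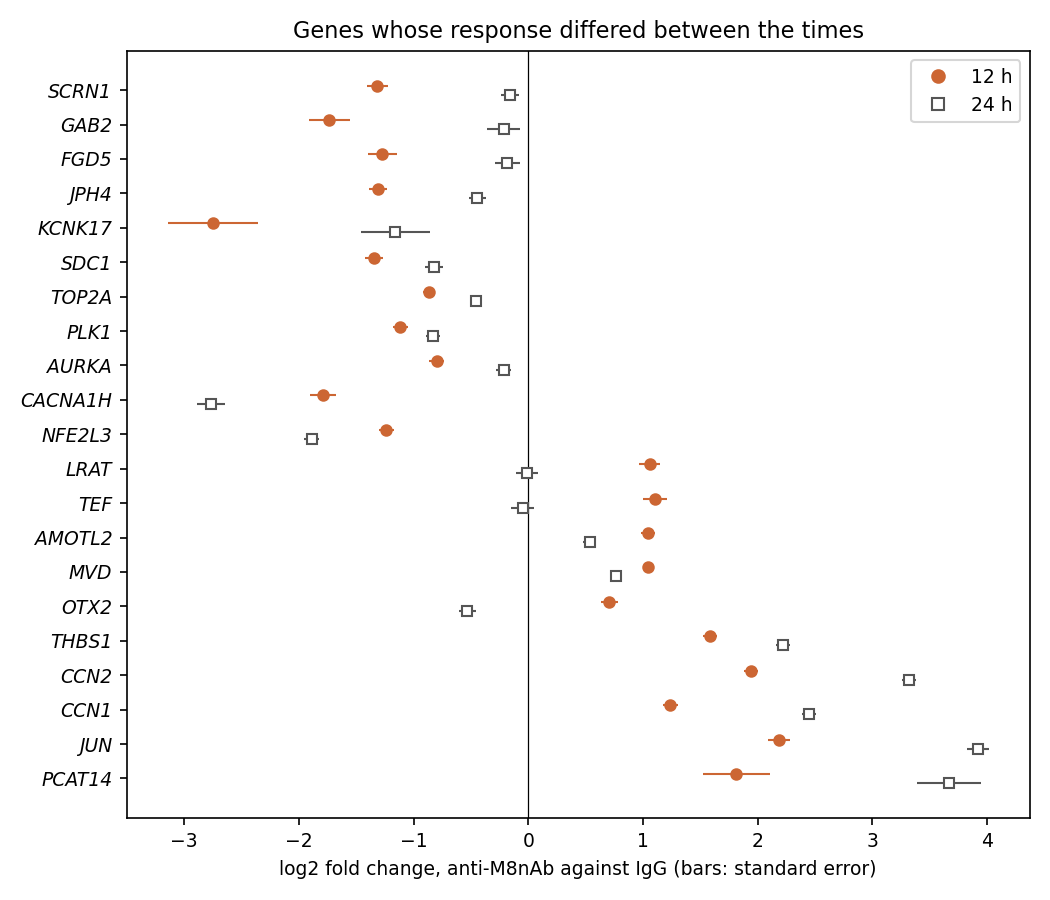
Log2 fold change between anti-M8nAb and IgG (x axis) at 12 h (orange circles) and 24 h (open squares) with standard errors for 21 genes whose difference between the times passed an adjusted p of 0.05. SCRN1, GAB2, FGD5, LRAT and TEF lie near 0 at 24 h, OTX2 changes sign, and CCN1, CCN2 and JUN move further out.

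Processed pseudogenes were higher in both anti-M8nAb libraries of 12 h, and most in replicate 2. These copies of messenger RNAs set back into the genome were at least 2-fold higher in 143 (17.9%) and lower in 5 (0.624%) of 801 tested, with a median log2 fold change of 0.46 at 12 h and 0.10 at 24 h. They held 0.228% and 0.226% of the counts of the IgG libraries of 12 h, 0.299% in anti-M8nAb replicate 1 and 0.474% in replicate 2, and 0.214% to 0.24% in the libraries of 24 h. Of the 143, 123 were higher in replicate 2 than in replicate 1, and 50 were pseudogenes of ribosomal proteins. RPL13AP5 lay at 34.5 and 32.0 CPM with IgG and at 70.6 and 142 CPM with anti-M8nAb, and RPS7P1 at 7.83 and 8.60 and at 20.6 and 35.6 CPM. Their reads can be shared with the parent genes. Among the 313 protein-coding genes that were at least 2-fold higher, 154 were higher in replicate 2 than in replicate 1. The part of this library in the pseudogene result was not tested. Without it the genes at least 2-fold higher numbered 509 in place of 686, and those lower 577 in place of 598.

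**Figure D5:**
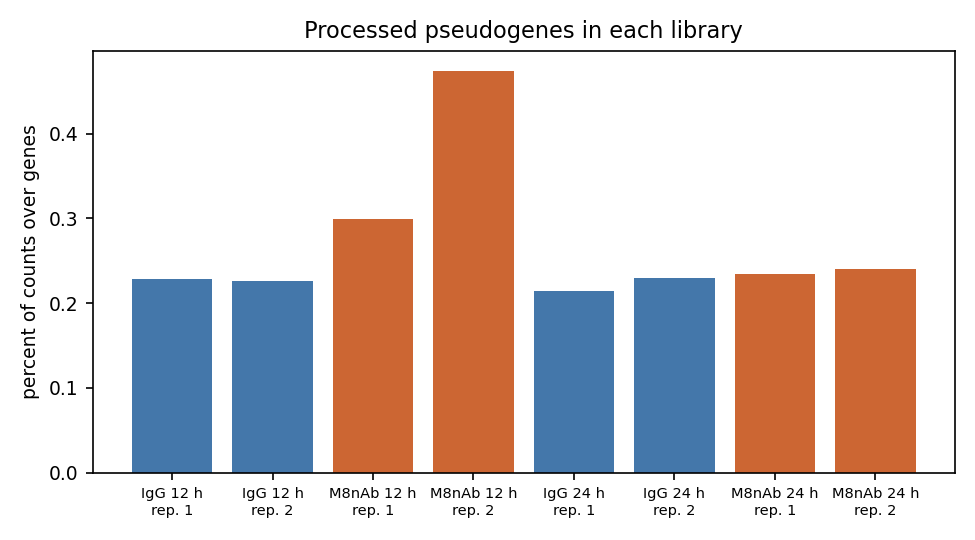
Share of counts over genes that fell on processed pseudogenes (y axis, percent, from 0) in each of the 8 libraries, blue for IgG and orange for anti-M8nAb. The anti-M8nAb libraries of 12 h stand at 0.299% and 0.474%, above the 6 others.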

How the data were processed

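RNA was sequenced from hESCs of the line BG01 in 2 libraries for each of 4 groups. After trimming (Trimmomatic), alignment to GRCh38.p14 (STAR, 2-pass) and removal of duplicates (Picard), the authors deposited HTSeq counts per Ensembl gene with no normalization. They also deposited FPKM made with RNAnorm. The submitters' processing notes further name FastQC 0.11.9 and GATK. All 62086 gene identifiers matched GENCODE annotation. Lines with no gene name (1005) were left out: the largest holds 49.3 to 50.2% of a library's counts, and those before the last 5 hold 0.192 to 0.21%. The 4 columns that match no sample were not used.

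Genes were filtered with filterByExpr by group, scaled by TMM and fitted over the 8 libraries with the quasi-likelihood test of edgeR 4.0.16 (R 4.3.3), with Benjamini-Hochberg adjustment over 20165 genes. Fold changes are on the log2 scale. The common biological coefficient of variation was 5.53%. The fit was tested on simulated data. The counts set the precision: genes of a few counts have wide errors. The blank-line share, strand overlap and replicates were checked, and no replicate was a copy of the other in its group. The squared differences between replicates were on average 2.28 to 4.5 times those of counting alone.

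Genes were described in 42 lists. Named genes are the 12 largest changes on each side (protein-coding, mean of at least 1 CPM, non-overlapping libraries), the 8 smallest p on each side with a mean of at least 20 CPM, the 5 largest changes of lncRNA, up to 6 members of a list by p (any member of lists of up to 20), the 8 smallest p for genes that moved more at 12 h, and 14 genes the study names. The members and lists were chosen with earlier results of these data known. SOD2 of the lists had no match. Alternatives were DESeq2 1.42.0 on 8 or 4 libraries, edgeR on the 4 libraries of 12 h, DESeq2 size factors, other filters, no fold threshold, limma 3.58.1 on log2(FPKM + 1) or log2(FPKM + 0.1), protein-coding genes alone, a replicate block and each library left out. Promoters came from RefSeq (GRCh38.p14). Some genes that the naming rule selects are not reported here.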

Additional observations from a re-analysis of the deposited data

Results flagged for a closer look

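The following results differ between the times in the test of the difference itself (24 h minus 12 h, log2 scale, adjusted p under 0.05 by edgeR). Among the genes past both thresholds at 12 h this was so for 249.

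Genes that fell at 12 h and less so at 24 h had positive differences of 1.15 in SCRN1, 1.52 in GAB2, 1.09 in FGD5, 0.87 in JPH4, 1.59 in KCNK17, 0.52 in SDC1, 0.41 in TOP2A and 0.28 in PLK1. Genes that rose at 12 h and less so at 24 h had negative differences of -1.15 in TEF, -1.07 in LRAT, -0.28 in MVD, -1.51 in RPL13AP5 and -1.86 in RPS7P1. The 2 pseudogenes were higher in anti-M8nAb 12 h replicate 2 than in replicate 1.

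Genes that rose at 12 h and rose further had differences of 1.38 in CCN2, 0.64 in THBS1, 1.73 in JUN and 1.85 in the lncRNA PCAT14. Genes that fell further had differences of -0.65 in NFE2L3 and -0.97 in CACNA1H. What underlies these differences was not tested.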

How the results depend on the processing

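Among 339 named genes no called direction reversed under the alternatives run. Many of them were named for large changes or small p in these same libraries, so a reversal was unlikely from the start. With 1 library left out, 60 of the gene-by-library results lost their call and 12 gained one, and under the other alternatives 154 lost and 16 gained theirs. List medians moved by more than the spread between replicates in 33 of 42 lists with log2(FPKM + 1) and in 34 with log2(FPKM + 0.1). With log2(FPKM + 1) the median of YAP and TAZ targets was 0.205 in place of 0.445 and that of EMT genes 0.128 in place of 0.31, while cholesterol synthesis had 0.577 and mitosis -0.413. Leaving out 1 library of 12 h moved 10 to 15 of the 42 medians. The count of genes at least 2-fold higher (686) was 442 with DESeq2 on 8 libraries, 333 with DESeq2 on the 4 libraries of 12 h, 457 with a mean of at least 1 CPM, 336 among protein-coding genes alone, 3196 with no threshold on the fold, and 128, 294 and 78 with limma on log2(FPKM + 1), log2(FPKM + 0.1) and log2(FPKM + 1) with no filter. The count of genes at least 2-fold lower (598) was 376 with DESeq2 on the 4 libraries, 3300 with no threshold on the fold, and 89, 378 and 74 in the same fits to FPKM. The pseudocount shrinks the folds of low genes, and fewer features are tested when only protein-coding genes are kept. The FPKM fits also carry no TMM scaling. Their median log2 fold change over all genes was -0.0428 with log2(FPKM + 1) and -0.0539 with log2(FPKM + 0.1). The count of genes whose response differs between the times (2486) was 1228 with no filter on low counts and 919, 896 and 454 in the FPKM fits. Leaving out 1 library gave 509 to 707 higher, 466 to 612 lower and 1452 to 2197 that differ between the times. Of these, the IgG libraries of 12 h moved the last count most, to 1452 when replicate 1 was left out and 1566 when replicate 2 was. The labels do not say that replicate numbers pair the libraries, and deviations of same-numbered libraries correlated at 0.0375 at 12 h and -0.123 at 24 h over 10687 genes. With the replicate block 651 genes were higher, 576 lower and 2323 differed between the times. The cause of these shifts was not tested. Without anti-M8nAb 12 h replicate 2, 406 of the 686 higher genes kept their call. Low counts limit the folds of genes near 1 CPM.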

Other observations

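Other gene groups at 12 h held genes on both sides. Their counts are to be read against 23.0% higher and 20.5% lower among well-expressed genes. Several lie near these shares, as in glycolysis and hypoxia with 29.7% and 21.6%, and no result about the groups is read from them. Glycolysis and hypoxia genes were higher in 11 and lower in 8 of 37, with the glucose transporter SLC2A3 at 0.52, the hypoxia-induced repressor BHLHE40 at 1.81 (13% of exons overlapped) and PFKP at -1.12. NRF2 and glutathione genes were higher in 10 and lower in 5 of 45, with HMOX1, which degrades haem, at 0.70. Chaperones of the endoplasmic reticulum were higher in 3 and lower in 6 of 28, and heat shock genes in 4 and 6 of 28, with FKBP4 at -0.45 (11% overlapped). Iron genes were higher in 5 and lower in 3 of 18, and interferon and NF-kB genes in 3 and 7 of 28, with MX1 at -0.76. ERK feedback genes were higher in 7 and lower in 6 of 24, with PHLDA1 at 0.78 and DUSP7 at -0.76. Cell cycle inhibitors were higher in 11 and lower in 7 of 28, with CCNG2 at 1.10. Ribosome biogenesis genes were higher in 7 and lower in 5 of 35, mitochondrially encoded genes in 4 and 2 of 13, and histone genes in 2 and 1 of 17, with H2BC11 at -1.29.

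Voltage-gated calcium channel genes were lower in 5 and higher in 2 of 17. The T-type channels CACNA1H and CACNA1G fell by 1.79 and 1.02 on the log2 scale, from 39.5 and 36.4 to 11.5 and 10.4 CPM in CACNA1H. Among 13 genes of DNA methylation 4 were lower and 3 higher, with DNMT3A at -0.45 and DNMT3B at -0.05 (adjusted p = 0.476).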
